A study of Mus musculus with 6 samples.

Results

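Ribosome assembly factors are the proteins that fold, cut, modify and escort pre-ribosomal RNA until a finished subunit leaves the nucleus. The genes described here encode 49 of them, chosen by name: each is the row of the count table whose Ensembl identifier maps to a listed mouse symbol, out of 29139 genes in the table. All 49 had counts in each of the 6 libraries, with 110 (Nol6) to 39138 (Npm1) counts over the 6 libraries, and all 49 passed the filter on low counts that kept 11864 genes. All libraries were made from 2-cell ICR mouse embryos kept in KSOM, a culture medium for early embryos. In 3 libraries the medium held 0.1% DMSO, the solvent, and in the other 3 it held 75 µM MS-444. This compound is known as an inhibitor of HuR, a protein that binds AU-rich RNA. The labels speak of 16 embryos lysed and of samples pooled before the cDNA was purified, and give neither the length of culture nor whether replicates were separate cultures. The p-values therefore reflect the spread among these libraries alone, and that spread may be technical.

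In the nucleolus, RNA polymerase I makes a long precursor RNA, and the small subunit processome, a large particle built on that precursor and the U3 small nucleolar RNA, prepares the small subunit. Other factors fold the part of the precursor that becomes the large subunit, and late factors carry each particle to the cytoplasm and make the last cut. In mouse embryos ribosomal RNA synthesis starts around the 2-cell stage, when the compact nucleolus precursor bodies inherited from the egg turn into working nucleoli.

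Library totals ranged from 2637763 to 4695866 counts, and the 49 genes took 0.351% to 0.595% of the counts in DMSO and 0.555% to 0.642% in MS-444. Levels are given as CPM, counts scaled to a common library size with TMM factors. In bulk libraries, fewer cells with a transcript and less of it per cell cannot be told apart. The 11 markers of the 2-cell embryo summed to 1540 to 2240 CPM in DMSO and 1660 to 2030 CPM in MS-444. Single markers had from 10 (Tdpoz2) to 2141 (Zfp352) counts per library. Zscan4d went from 1694 to 1790 counts to 1181 to 1465, and Tdpoz2 from 10 to 19 counts to 48 to 56. Of the 11, 1 rose and 1 fell, where 14.4% and 11.1% of all genes tested did. Of 12 oocyte markers 0 rose and 5 fell, and the 12 summed to 10000 to 12400 CPM in DMSO and 6690 to 9530 CPM in MS-444. Markers of cumulus and granulosa cells summed to 10.8 to 12.8 CPM in DMSO and 24.2 to 26.6 CPM in MS-444, and Amhr2 went from 7 to 13 counts to 39 to 73, while Tnfaip6 went from 2 to 7 counts to 12 to 14, Cyp19a1 from 13 to 32 counts to 10 to 11, and the other 5 in the table (Foxl2, Fshr, Inhba, Has2 and Ptx3) were at 5 counts or fewer per library. Blood markers stood at 2.04 to 7.37 and 9.89 to 26 CPM, nearly all Hba-a1, and sperm markers at 1.2 to 6.45 and 3.88 to 4.85 CPM. Fibroblast collagens were at 4 counts or fewer per library. The part of these cells in the results was not tested.

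One control library stood apart for these genes. DMSO replicate 1 was the highest of the DMSO libraries for 39 of the 49 genes, and the median of the genes there was 0.44 (log2) above the mean of the DMSO libraries, against -0.21 and -0.16 in DMSO replicates 2 and 3. The same median was 0.96, 0.72 and 0.60 in MS-444 replicates 1, 2 and 3, so each MS-444 library lay above each DMSO library. Over all genes tested the median differed little between libraries, from -0.03 to 0.07. Results are therefore given with DMSO replicate 1 and, where it changes a call, without it.

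Under MS-444 the transcripts of most assembly factors were more abundant, but few single genes passed the test. Of the 49, 41 had a fitted log2 fold change above 0, where 50.6% of all genes tested did. In edgeR's quasi-likelihood test with Benjamini-Hochberg adjustment over all 11864 genes, 11 of the 49 (22.4%) rose, where 14.4% of all genes tested rose. Of the 49, 1 (2.04%) fell, where 11.1% of all genes tested fell, and 37 did not pass. The median log2 fold change of the 49 was 0.76, with quartiles of 0.37 and 0.99, against a median of 0.02 and quartiles of -0.60 and 0.78 over all genes tested. Every MS-444 library lay above every DMSO library for 21 of the 49, where that held for 23% of all genes tested, and below for 3, where it held for 20.9%.

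The count of risen factors moved with the libraries used, while the median moved less. Without DMSO replicate 1, 23 of the 49 rose and the median was 0.98, with 13 genes gained and Bop1 lost. Without DMSO replicate 2 the count was 5 (median 0.58) and without DMSO replicate 3 it was 7 (median 0.55). It was 6 without MS-444 replicate 1 (median 0.61), 3 without MS-444 replicate 2 (median 0.77) and 6 without MS-444 replicate 3 (median 0.78). Calls over all genes moved as well. Without DMSO replicates 1, 2 and 3 in turn, 16.3%, 8.46% and 7.1% of all genes tested rose. Without MS-444 replicates 1, 2 and 3 in turn, 10.1%, 5.23% and 5.57% rose. Near these shares were the 5 of 49 without DMSO replicate 2, the 6 without MS-444 replicate 1 and the 3 without MS-444 replicate 2. Library totals in place of TMM put the median of all genes at 0.20, and 18 factors and 18.4% of all genes rose. With either scaling, the distance of the median of the factors from that of all genes was 0.74.

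**Figure D1:**
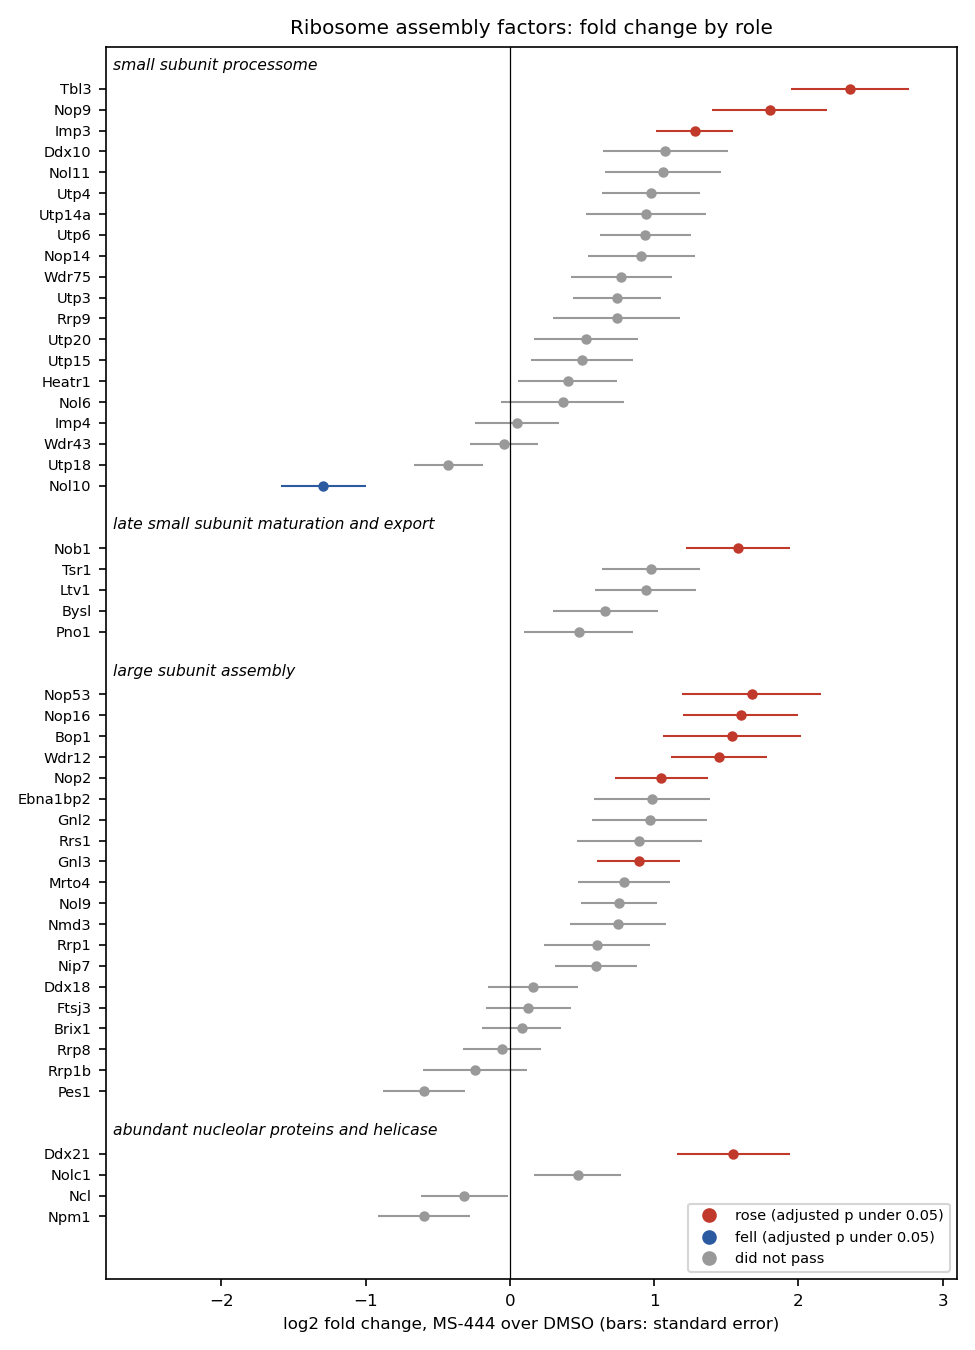
Fitted log2 fold change of MS-444 over DMSO for the 49 genes, grouped by role, with bars for the standard error and colour for the result of edgeR's test. Most points lie between 0 and 1.1; Tbl3 is the highest at 2.36 and Nol10 the lowest at -1.30.

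**Figure D2:**
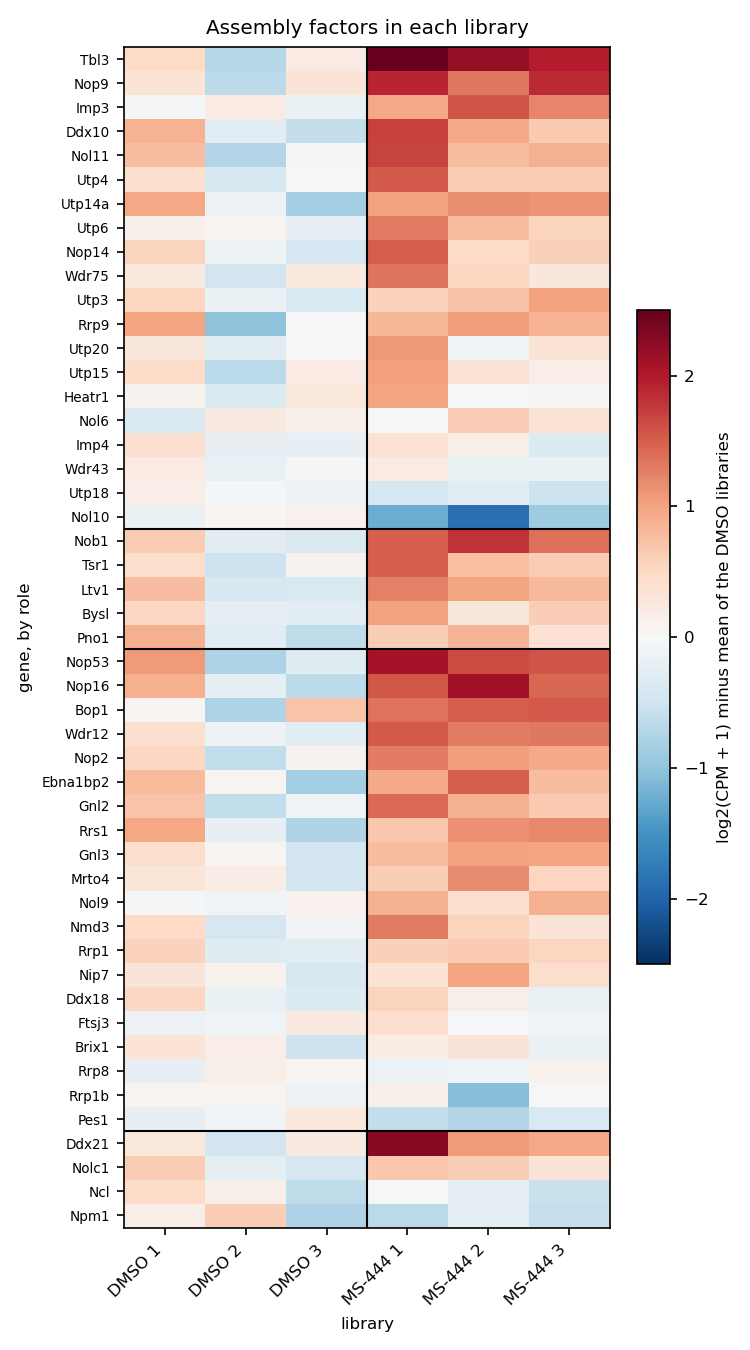
Each gene's log2(CPM + 1) in each library minus its mean over the 3 DMSO libraries, with horizontal lines between the 4 roles. The DMSO replicate 1 column is mostly above its neighbours. The MS-444 columns are above 0 for most rows, with Nol10, Pes1, Utp18, Npm1 and Ncl below 0 in all of them.

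The small subunit processome was represented by 20 genes, of which 3 rose (15%, near the 14.4% of all genes tested), 1 fell and 16 did not pass, with a median log2 fold change of 0.76. Tbl3 (ENSMUSG00000040688) is the counterpart of yeast Utp13, a scaffold protein of the UtpB module. It stood at 9.19, 3.45 and 7.40 CPM in DMSO replicates 1, 2 and 3 and at 42.5, 31.7 and 27.2 CPM in MS-444 replicates 1, 2 and 3. The groups did not overlap, and the rise from 6.68 ± 2.94 to 33.8 ± 7.88 CPM (SD, n = 3) had a log2 fold change of 2.36 (SE 0.41, edgeR adjusted p = 0.0054). This call held in all 17 alternatives, at 1.97 to 2.57.

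Imp3 (ENSMUSG00000032288), a small protein that with Imp4 and Mpp10 joins the U3 RNA to the precursor, read 62.4, 73.4 and 57.2 CPM in DMSO and 125.3, 192.4 and 151.2 CPM in MS-444. Its log2 fold change came to 1.28 (SE 0.26, edgeR adjusted p = 0.0092), and without MS-444 replicate 2 the call was lost (1.04, adjusted p = 0.0595). With the offset for GC content and transcript length its value was 0.68 (adjusted p = 0.0355). Nop9 (ENSMUSG00000019297), an RNA-binding protein of early small subunit precursors in yeast, read 8.80, 3.91 and 8.68 CPM in DMSO and 28.2, 18.2 and 27.4 CPM in MS-444. It rose by 1.80 on the log2 scale (SE 0.40, edgeR adjusted p = 0.012) and lost its call without MS-444 replicate 3 (1.70, adjusted p = 0.0506). In neither gene did the groups overlap.

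Nol10 (ENSMUSG00000061458), the counterpart of yeast Enp2, was the only one of the 49 that fell. It read 130.3, 150.8 and 156.7 CPM in DMSO and 61.2, 39.1 and 77.9 CPM in MS-444, so the treated libraries were all lower. The log2 fold change was -1.30 (SE 0.29, edgeR adjusted p = 0.013), and without MS-444 replicate 2 it was -1.13 (adjusted p = 0.0508). In yeast Enp2 works beside the helicase Dbp4, whose mouse counterpart is Ddx10. For Ddx10 the value was 1.08 with overlapping groups (edgeR adjusted p = 0.091). Ddx10 passed in 5 of the 17 alternatives, among them that without DMSO replicate 1 (1.59, edgeR adjusted p = 0.0173).

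Utp18, another UtpB protein, and Wdr43, the counterpart of yeast Utp5, did not pass. Utp18 read 131.1, 112.8 and 105.9 CPM in DMSO and 85.0, 95.0 and 79.8 CPM in MS-444, lower without overlap, with a log2 fold change of -0.43 (SE 0.24, edgeR adjusted p = 0.20). Wdr43 was the most abundant processome gene here per kilobase (72.1 CPM per kb in DMSO), with Imp3 close to it (69.6). The reference transcript of Imp4 is 5836 bases long with a 3′ UTR of 4886, so this order depends on the transcripts chosen. Wdr43 read 287, 216.2 and 243.4 CPM in DMSO and 284.6, 219 and 221.3 CPM in MS-444. Its groups overlapped almost fully, and the log2 fold change was -0.04 (SE 0.23, adjusted p = 0.91).

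The other 14 processome genes that did not pass, among them Imp4, Heatr1, Utp4, Utp6, Utp14a and Utp20, had log2 fold changes of 0.05 to 1.08. The nearest to the threshold were Utp6 (0.94, edgeR adjusted p = 0.051) and Utp4 (0.98, adjusted p = 0.056). UtpA, the module that binds the start of the precursor, was represented by 6 genes (Heatr1, Utp4, Utp15, Wdr43, Wdr75 and Nol11). None of the 6 rose or fell, where 25.5% of all genes tested did. Their values ran from -0.04 to 1.06, with a median of 0.64. In the 17 alternatives Utp4 and Nol11 each passed in 7, and outside UtpA Utp6 passed in 6 and Utp14a and Nop14 in 3. Without DMSO replicate 1, the processome genes Utp3 (0.99), Utp4 (1.15), Utp14a (1.52), Nop14 (1.18), Rrp9 (1.31) and Nol11 (1.48) also passed, with edgeR adjusted p of 0.0108 to 0.0438.

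Late maturation of the small subunit was represented by 5 genes, of which 1 rose (20%, against 14.4% of all genes tested), 0 fell and 4 did not pass, with a median log2 fold change of 0.94. Nob1 (ENSMUSG00000003848) encodes the nuclease that makes the last cut of small subunit ribosomal RNA. It read 19.6, 9.90 and 9.19 CPM in DMSO and 36.3, 44.8 and 33.2 CPM in MS-444, with no overlap. The log2 fold change was 1.58 (SE 0.36, edgeR adjusted p = 0.013), and without MS-444 replicate 2 it was 1.39 (adjusted p = 0.0646). Pno1, the RNA-binding partner of Nob1 and the most abundant of the 5 per kilobase (71.4 CPM per kb in DMSO), read 185.1, 82.4 and 63.3 CPM in DMSO and 152, 178.9 and 128.1 CPM in MS-444. DMSO replicate 1 exceeded each MS-444 library for Pno1, which did not pass (log2 0.48, SE 0.38, edgeR adjusted p = 0.37) and did so without that library (1.01, adjusted p = 0.0304). Tsr1 (0.98), a GTPase-like factor, and Ltv1 (0.94), which accompanies the particle to the cytoplasm, were higher without overlap but did not pass (edgeR adjusted p = 0.057 and 0.071). Each passed in 7 of the 17 alternatives, among them that without DMSO replicate 1. Bysl, the counterpart of yeast Enp1, stood at 0.66 on the same scale (adjusted p = 0.20), with overlap.

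Large subunit assembly was represented by 20 genes, of which 6 rose (30%, against 14.4% of all genes tested), 0 fell and 14 did not pass, with a median log2 fold change of 0.77. Wdr12, Bop1 and Pes1 encode the PeBoW complex, which is needed to process large subunit RNA. Wdr12 (ENSMUSG00000026019) read 12.4, 8.29 and 7.40 CPM in DMSO and 28.2, 23.6 and 24.3 CPM in MS-444 (log2 1.45, SE 0.33, edgeR adjusted p = 0.013). Bop1 (ENSMUSG00000022557) read 3.998, 1.84 and 6.89 CPM in DMSO and 11.4, 12.8 and 12.9 CPM in MS-444 (log2 1.54, SE 0.48, edgeR adjusted p = 0.039). Pes1 (ENSMUSG00000020430) read 30.0, 32.9 and 41.6 CPM in DMSO and 22.3, 20.3 and 26.4 CPM in MS-444 (log2 -0.60, SE 0.29, edgeR adjusted p = 0.14). All 3 genes had groups without overlap, and Wdr12 and Bop1 passed as higher while Pes1 was lower and did not pass. Wdr12 lost its call without MS-444 replicate 2 (1.44, adjusted p = 0.0511). Bop1 lost its call without DMSO replicate 1 or 2 or any MS-444 replicate (1.09 to 1.55, adjusted p 0.0692 to 0.116), and its 172 counts over the 6 libraries make it one of the least counted members.

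Nop16 (ENSMUSG00000025869), found in large subunit precursors in yeast, read 91.1, 41.4 and 30.6 CPM in DMSO and 145.8, 211.2 and 134.4 CPM in MS-444. Its log2 fold change was 1.60 (SE 0.40, edgeR adjusted p = 0.018), lost when DMSO replicate 2, DMSO replicate 3 or MS-444 replicate 2 was left out (1.27 to 1.38, adjusted p 0.0553 to 0.081) and with an offset for GC content and transcript length (0.99, adjusted p = 0.0724). Nop53 (ENSMUSG00000041560), which in yeast brings the exosome to large subunit precursors, read 20.8, 5.06 and 7.40 CPM in DMSO and 42.5, 31.1 and 29.8 CPM in MS-444. Its log2 fold change was 1.68 (SE 0.48, edgeR adjusted p = 0.030). In both genes each MS-444 library was above each DMSO library, with DMSO replicate 1 the nearest. Nop2 (ENSMUSG00000038279), a methyltransferase that modifies large subunit ribosomal RNA, read 47.6, 21.2 and 35.0 CPM in DMSO and 80.6, 68.7 and 64.3 CPM in MS-444 (log2 1.05, SE 0.32, edgeR adjusted p = 0.037). Gnl3, the GTPase known as nucleostemin, read 78.8, 59.4 and 40.8 CPM in DMSO and 98.9, 117.1 and 115.3 CPM in MS-444 and rose by 0.89 on the log2 scale (SE 0.29, edgeR adjusted p = 0.045). The calls of Nop53, Nop2 and Gnl3 were lost without any library other than DMSO replicate 1, at 1.26 to 1.75 for Nop53, 0.73 to 1.11 for Nop2 and 0.63 to 0.91 for Gnl3 (adjusted p 0.0734 to 0.163). Gnl3 also did not pass with no filter on low counts (0.85, edgeR adjusted p = 0.0599).

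Brix1, the counterpart of yeast Brx1, was the most abundant large subunit factor per kilobase (163.2 CPM per kb in DMSO). It read 536.5, 474.2 and 293.9 CPM in DMSO and 476.2, 525.5 and 377.6 CPM in MS-444, with overlapping groups and a log2 fold change of 0.08 (SE 0.27, edgeR adjusted p = 0.85). The methyltransferase Rrp8, at 26.8, 34.8 and 32.4 CPM in DMSO and 28.2, 29.0 and 33.2 CPM in MS-444, had a log2 fold change of -0.06 (SE 0.27, edgeR adjusted p = 0.89). Rrp1b, a paralog of Rrp1, read 25.6, 25.3 and 21.9 CPM in DMSO and 26.4, 11.1 and 24.3 CPM in MS-444 (log2 -0.24, SE 0.36, edgeR adjusted p = 0.65), with only MS-444 replicate 2 lower. The groups of Rrp8 and Rrp1b overlapped, and the 11 large subunit genes that did not pass and had values above 0 ran from 0.08 (Brix1) to 0.99 (Ebna1bp2), with Nol9 the nearest to the threshold (0.76, edgeR adjusted p = 0.057). Without DMSO replicate 1, Rrs1 (1.48), Ebna1bp2 (1.40) and Gnl2 (1.36) passed, with edgeR adjusted p of 0.0146, 0.024 and 0.0261. Ebna1bp2 and Gnl2 each passed in 4 of the 17 alternatives and Nol9 in 2.

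The last 4 genes encode the abundant nucleolar proteins nucleophosmin (Npm1) and nucleolin (Ncl), the small nucleolar RNP chaperone Nolc1 and the helicase Ddx21. Ddx21 (ENSMUSG00000020075) was the only one of these 4 that passed, where 25.5% of all genes tested passed in either direction. It read 54.0, 31.8 and 52.6 CPM in DMSO and 220.2, 95.3 and 88.8 CPM in MS-444, with MS-444 replicate 1 far above the other treated libraries. Its log2 fold change was 1.55 (SE 0.39, edgeR adjusted p = 0.019), and it lost the call without MS-444 replicate 1 (0.95, adjusted p = 0.0576) or DMSO replicate 2 (1.28, adjusted p = 0.0633).

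Nolc1, with 223.1, 123.9 and 108.2 CPM in DMSO and 229.0, 221.1 and 179.8 CPM in MS-444, overlapped through DMSO replicate 1 and did not pass (log2 0.47, SE 0.30, edgeR adjusted p = 0.27). Npm1 (ENSMUSG00000057113) was the most abundant of the 49 per kilobase, at 1356 CPM per kb in DMSO. It read 2284, 3152 and 1209 CPM in DMSO and 1285, 1733 and 1379 CPM in MS-444. The groups overlapped because DMSO replicate 3 was the lowest library of all, and the log2 fold change of -0.60 (SE 0.32) did not pass (edgeR adjusted p = 0.19), but did without DMSO replicate 3 (-0.94, adjusted p = 0.0357). Ncl read 428.6, 340.2 and 198.3 CPM in DMSO and 305.2, 262.3 and 209.6 CPM in MS-444, with overlapping groups (log2 -0.32, SE 0.30, edgeR adjusted p = 0.46). Reads of Npm1 may be split with its many processed pseudogenes. The reference transcript used for the length of Ncl is 8202 bases long with a 3′ UTR of 5901, so that its level per kilobase depends on that choice.

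Ratios of CPM values between partners in the same library, which do not depend on library scaling, are given for 5 pairs. The pairs were chosen after their values were seen because the partners differed, so the ratios are a description with no test. Wdr12 over Pes1 was 0.413, 0.252 and 0.178 in DMSO and 1.26, 1.16 and 0.917 in MS-444, so Wdr12 went from fewer counts than Pes1 in each DMSO library to about as many, with a difference of 2.06 in mean log2 ratio. Bop1 over Pes1 was 0.133, 0.0559 and 0.166 in DMSO and 0.508, 0.632 and 0.486 in MS-444, a difference of 2.33. Tbl3 over Utp18, both of UtpB, was 0.0701, 0.0306 and 0.0699 in DMSO and 0.50, 0.333 and 0.340 in MS-444, a difference of 2.85. All 3 ratios were higher in each MS-444 library than in each DMSO library.

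Imp3 over Imp4 was 0.437, 0.794 and 0.619 in DMSO and 0.915, 1.63 and 1.80 in MS-444, a difference of 1.21. Imp4 itself read 142.7, 92.5 and 92.4 CPM in DMSO and 137, 117.7 and 84.2 CPM in MS-444 (log2 0.05, SE 0.29, edgeR adjusted p = 0.91). Nob1 over Pno1 was 0.106, 0.120 and 0.145 in DMSO and 0.239, 0.250 and 0.260 in MS-444, a difference of 1.02 and the tightest of the 5 ratios among the treated libraries (SD 0.061 in log2). The groups did not overlap for any of the 5 ratios. DMSO replicate 1 was the highest control for Wdr12 over Pes1 and, by a small margin, Tbl3 over Utp18, and the lowest for Imp3 over Imp4 and Nob1 over Pno1.

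**Figure D3:**
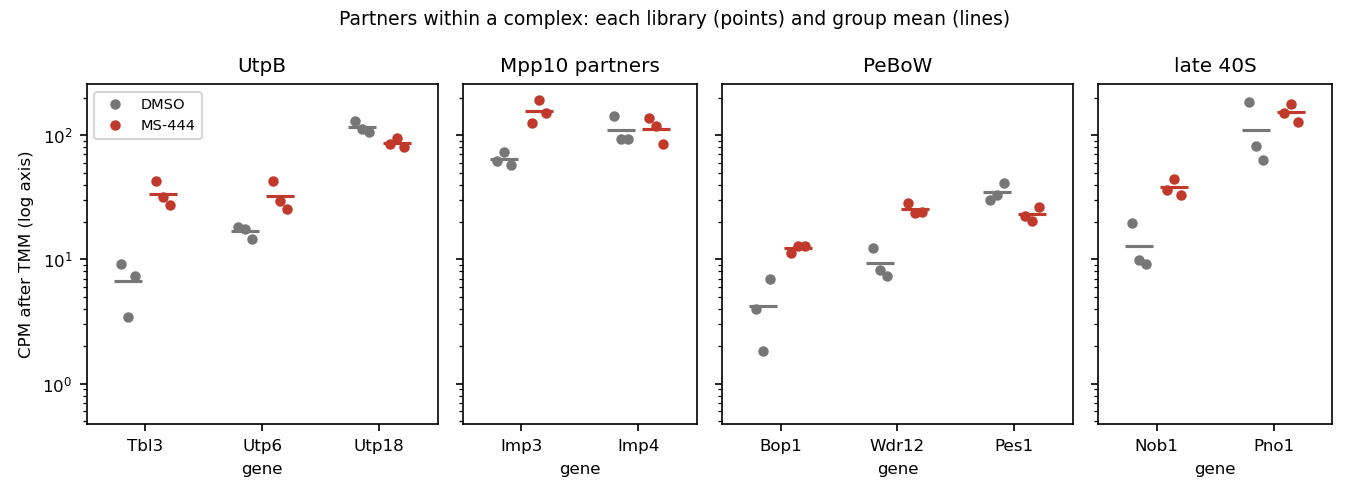
CPM after TMM scaling on a log axis for genes of the same complex, with 1 point per library and a line at the mean of the 3 libraries of a group. Tbl3, Imp3, Bop1, Wdr12 and Nob1 lie higher in MS-444 without overlap, whereas Utp18 and Pes1 lie lower and Imp4 and Pno1 overlap.

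Some counts may hold reads of a neighbour, because the labels do not say whether reads keep their strand. Exons of 19 of the 49 genes overlap exons of a gene on the opposite strand in GENCODE M21. The partner of Pno1, Wdr92, fell (log2 -1.80, edgeR adjusted p = 0.0055), and that of Bysl, Ccnd3, rose (log2 1.33, adjusted p = 0.021). Noxo1, which overlaps Tbl3, had 26 to 74 counts per library and did not pass (log2 -0.67, adjusted p = 0.19), and the partners of Nop9 and Bop1 had 6 counts or fewer. Carf, which overlaps Wdr12, had 12 to 32 counts per library, against 29 to 100 of Wdr12. Pbrm1, which overlaps Gnl3, had 125 to 234, against 160 to 475 of Gnl3. Neither Carf (log2 -0.67, edgeR adjusted p = 0.24) nor Pbrm1 (log2 0.18, adjusted p = 0.67) passed. Utp14a has a near copy, Utp14b, and reads may be split between them. Utp14b rose (log2 0.88, edgeR adjusted p = 0.047), and Utp14a itself, at 0.94, did not pass (adjusted p = 0.12). Utp14a passed without DMSO replicate 1 (1.52, edgeR adjusted p = 0.0108) and with a replicate block (1.13, adjusted p = 0.0489). It also passed with the block and the offset for GC content and length (1.14, edgeR adjusted p = 0.0383).

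Among the 49, the rarer and more GC-rich genes tended to have the higher fold changes. Median GC content of the reference transcripts was 48.01% for the 49 and 49.03% for all genes tested, and median length 2850 and 2564 bases. The 11 that rose had a median GC content of 54.1% and the 37 that did not pass 47.6%. Across the 49 genes the log2 fold change had a Pearson r of 0.33 with GC content and -0.40 with log2 mean CPM, against 0.09 and -0.19 across all genes tested; genes share libraries and are not independent. With an offset for GC content and length, 19 of the 49 and 14.7% of all genes tested rose, and the median was 0.69, against -0.08 for all genes. A 3′ UTR with at least 1 AUUUA, the core of the AU-rich elements that HuR-type proteins bind, was annotated for 27 of the 49 (55.1%), 6 of the 11 that rose (54.5%) and 62.5% of all genes tested with a 3′ UTR. Within 5 of the 49 genes (Ncl, Gnl3, Wdr43, Tsr1 and Nop53) lie 12 annotated small nucleolar RNA genes in all.

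Promoters are shown because many promoters of ribosome assembly genes are known to carry the E-box CACGTG, a site of MYC family dimers. The RefSeq promoter table (GRCm38.p6, 250 bases before to 50 after each gene start) matched 41 of the 49 genes, and Tbl3, Utp6, Nop53, Npm1, Bop1, Rrs1, Nol6 and Gnl2 were not matched. CACGTG, which reads the same on both strands, was present in 12 of the 41 (29.3%), 11.6% of the 8635 genes tested with a promoter and 8.09% of all 27025 genes in the table. CCGGAAG, an ETS-type motif searched on both strands, was present in 13 of the 41 (31.7%), 20.1% of the genes tested and 9.93% of all; the letters of the 2 motifs cannot overlap. A match is a description of letters and not of binding. Of the 12 members with CACGTG, the motif lay wholly before the gene start in 5 and reached or followed the start in the others. The following 60-base stretches, 5′ to 3′ on the gene's strand and wholly before the gene start, show CACGTG in capitals for these 5, Nop2 (which rose) and 4 that did not pass.
Nop2 (chr6:125131796-125131855, plus strand): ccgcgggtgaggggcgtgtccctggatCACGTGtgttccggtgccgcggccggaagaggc
Nol11 (chr11:107189392-107189451, minus strand): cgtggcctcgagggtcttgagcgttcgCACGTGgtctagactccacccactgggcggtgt
Utp18 (chr11:93885767-93885826, minus strand): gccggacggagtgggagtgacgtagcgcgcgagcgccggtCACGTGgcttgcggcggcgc
Imp4 (chr1:34439681-34439740, plus strand): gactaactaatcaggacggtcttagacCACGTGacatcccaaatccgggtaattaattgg
Nmd3 (chr3:69721914-69721973, plus strand): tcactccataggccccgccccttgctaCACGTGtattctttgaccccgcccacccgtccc

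Of the 8 matched members that rose, 1 held the E-box (12.5%), near the 11.6% of all genes tested, and 3 of the 11 that rose were not matched. Of the 12 members with CACGTG, 1 (Nop2, 8.33%) rose, where 13.1% of all genes tested with the motif rose. Their median log2 fold change was 0.64 with a range of -0.60 (Pes1) to 1.06 (Nol11). The 29 matched members without it had a median of 0.74, and 7 of them (24.1%) rose, where 14.1% of all genes tested without it rose. Over all genes tested the medians were -0.01 with and -0.01 without the motif. The promoter of Nol10, the member that fell, held no CACGTG and held the ETS-type motif, shown in capitals in the following stretch.
Nol10 (chr12:17348386-17348445, plus strand): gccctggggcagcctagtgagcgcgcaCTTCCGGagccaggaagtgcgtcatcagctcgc

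Myc, the best known regulator of these genes, was rare and did not pass (means of 7.09 CPM in DMSO and 12.6 in MS-444, log2 0.83, edgeR adjusted p = 0.16). Of the 7 genes of Myc and its partners, 0 rose, where 14.4% of all genes tested did, and 1 (14.3%) fell, near the 11.1% of all genes. The fallen gene, Mxd1, encodes an antagonist of MYC (log2 -1.07, edgeR adjusted p = 0.024). The call of Mxd1 ended when DMSO replicate 3 or a single MS-444 replicate was left out (-1.16 to -0.93, adjusted p 0.0549 to 0.0699).

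The shares that follow stand against 14.4% of all genes tested that rose and 11.1% that fell. Of 34 other small subunit assembly factors 16 (47.1%) rose, 1 fell and 17 did not pass, with a median log2 fold change of 1.02. Utp23 (2.27) and the methyltransferase Emg1 (1.82) rose and the kinase Riok1 fell (-1.34), with edgeR adjusted p of 0.0033, 0.0066 and 0.0052, and these calls held in all 17 alternatives. Of 49 other large subunit factors 15 (30.6%) rose, 2 fell and 32 did not pass, with a median of 0.84. Noc2l (2.59) and the nucleostemin relative Gnl3l (3.01) rose. The fallen genes were Efl1 (-2.63, adjusted p = 0.0042) and Sbds (-0.96, adjusted p = 0.029), whose proteins together release the factor eIF6 from the new large subunit. The call of Sbds was lost without DMSO replicate 2 or MS-444 replicate 2 or 3 (-1.03 to -0.83, adjusted p 0.0802 to 0.112) and with library totals (-0.78), while that of Efl1 held in all 17 alternatives.

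Of 13 genes of the small nucleolar RNP core and its assembly 6 (46.2%) rose and 1 fell, with a median of 0.84, and among them Nhp2 (1.86), Ruvbl1 (1.90) and Nop10 (2.02) rose in all 17 alternatives. The fallen gene was the assembly factor Shq1 (-1.82, edgeR adjusted p = 0.036), a call that ended when DMSO replicate 3 or a single MS-444 replicate was left out (-2.11 to -1.27, adjusted p 0.0515 to 0.15), with library totals (adjusted p = 0.0512) and in limma with the smaller pseudocount of 0.1 (adjusted p = 0.0548). Of 20 genes of RNA polymerase I transcription 11 (55%) rose, 0 fell and 9 did not pass, with a median of 1.41, the highest of these lists. The subunit gene Znrd1 (2.63) and the genes Polr2k (2.65) and Polr2l (1.87), whose products all nuclear RNA polymerases share, held their calls in all 17 alternatives. Of 14 genes of the exosome and the nuclease Xrn2, 3 (21.4%) rose, Dis3, C1d and Exosc5, and 1, Xrn2, fell, with a median of 0.47.

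Of 6 genes of nucleolar stress sensing and export, Rpl11 (1.41), Mdm2 (0.89) and Ran (0.87) rose and 0 fell (edgeR adjusted p = 0.019, 0.029 and 0.041). Leaving out single libraries ended calls in these last lists. With the offset for GC content and length Exosc5 was at 0.66 (adjusted p = 0.225), and with no filter on low counts Exosc5, Mdm2 and Ran did not pass (adjusted p = 0.0772, 0.0524 and 0.0502). Those of Dis3 (0.94 to 1.17), Exosc5 (1.15 to 1.32), Mdm2 (0.67 to 0.90) and Ran (0.59 to 0.90) were lost without any library other than DMSO replicate 1, those of Xrn2 (-1.10 to -0.94) and Rpl11 (1.09 to 1.36) without DMSO replicate 3 or MS-444 replicate 2 or 3. Xrn2 also did not pass with library totals (-0.97, edgeR adjusted p = 0.0505). Without any library other than DMSO replicate 1, 0 of 14 exosome genes rose in edgeR's test, where 5.23% to 10.1% of all genes tested rose. Counts of risen genes in the other lists were lowest without MS-444 replicate 2, where 5.23% of all genes tested rose. They were then 3 of 34 other small subunit factors, 3 of 49 other large subunit factors (near that share), 3 of 13 small nucleolar RNP genes and 4 of 20 polymerase I genes. Without DMSO replicate 2, 3 of 35 other small subunit factors rose, near the 8.46% of all genes. Without DMSO replicate 1, 17 of 35, 25 of 49, 7 of 13 and 13 of 21 rose in these 4 lists in turn, where 16.3% of all genes tested rose. The lists share libraries with the 49 genes, and differences between lists were not tested.

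**Figure D4:**
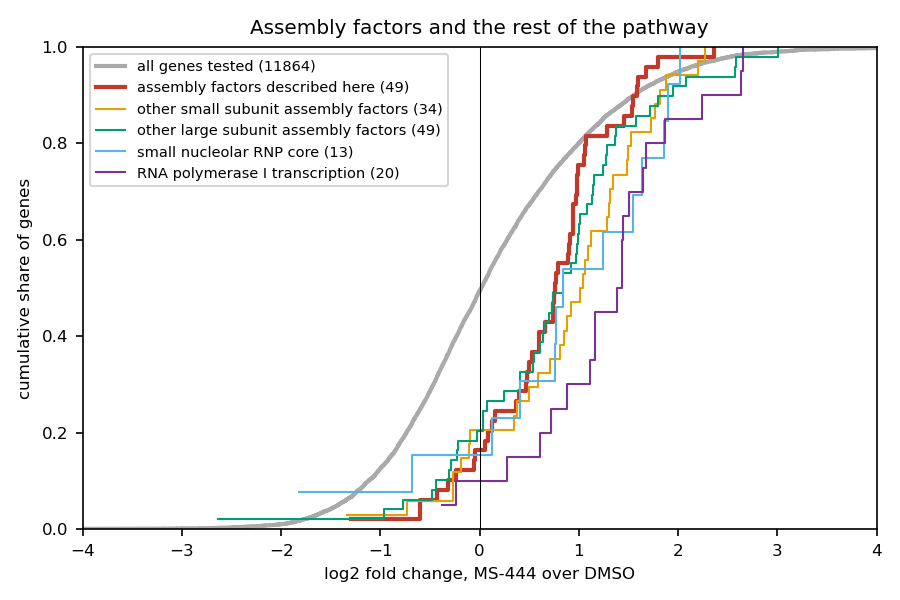
Cumulative share of genes by log2 fold change of MS-444 over DMSO, for the 49 assembly factors, 4 other lists of the pathway and all genes tested, with the number of genes in brackets. The curve of all genes crosses 0.5 near 0.02, that of the 49 at 0.76 and that of polymerase I transcription at 1.41.

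**Figure D5:**
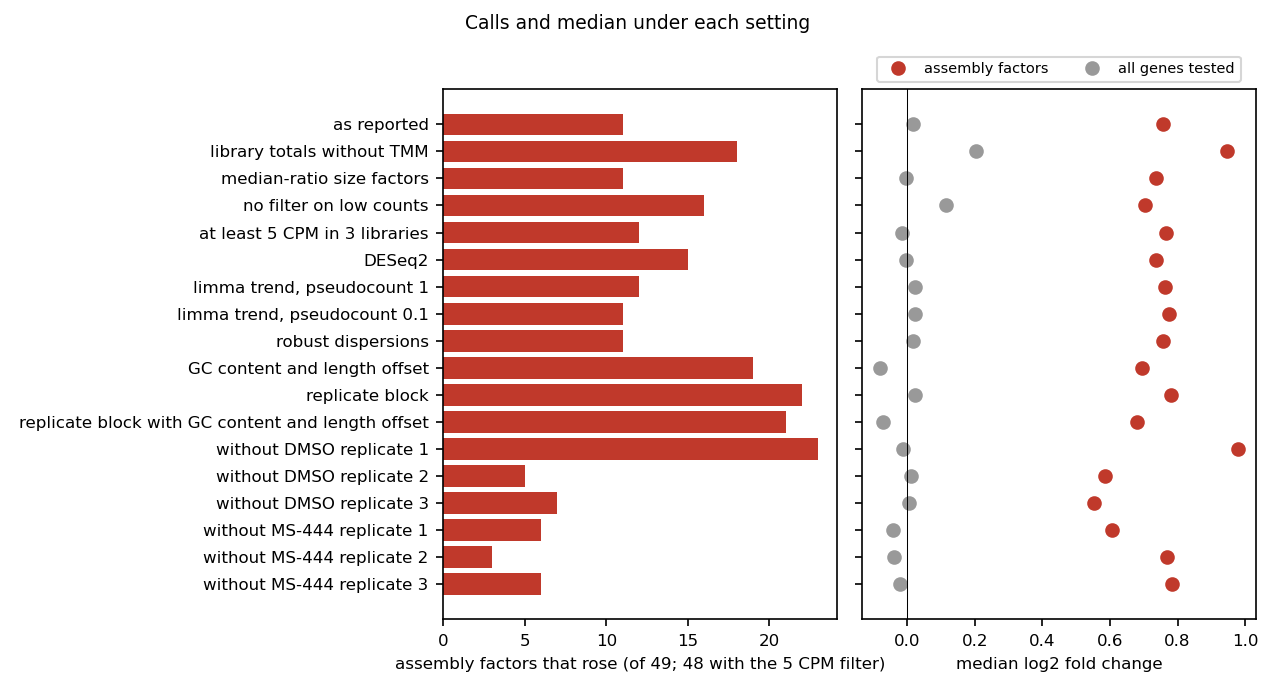
The number of assembly factors that rose (bars) and the median log2 fold change of these factors and of all genes tested (points) as reported and under each of 17 alternatives. The bars run from 3 to 23, and the medians of the assembly factors from 0.55 to 0.98.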

How the data were processed

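RNA of 2-cell mouse embryos was measured in 3 libraries cultured with DMSO and 3 with MS-444. The values the authors deposited are raw counts of 29139 genes in 1 table, whole numbers with a different total per library and no normalization. Per the submitters' processing notes, HISAT2, Cufflinks 2.2.1 and the build mm9 were used; how reads were counted, and with what regard to strand and multiple mapping, is not known here. Per the labels' protocols, full-length cDNA was amplified by PCR, so counting intervals would cover counting error only.

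Symbols came from GENCODE M21, which matched 29075 of 29139 identifiers. Length, GC content and 3′ UTR were those of the shortest basic transcript with the longest coding sequence. Its build differs from mm9, so only promoter positions are given, on GRCm38.p6. Genes were kept by edgeR's filter at a minimum of 10 counts (98.8% to 99.3% of the counts), scaled by TMM (factors 0.933 to 1.11) and tested with edgeR (quasi-likelihood, two-sided), adjusting by Benjamini-Hochberg over 11864 genes at a threshold of 0.05. Standard errors were derived from that test. The tools were edgeR 4.0.16, limma 3.58.1, DESeq2 1.42.0 and mgcv 1.9.3 under R 4.3.3.

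The members and lists were chosen with earlier results of these data known. Named genes are, per role, up to 4 passing members by lowest adjusted p, the most abundant per kilobase, and members with a log2 fold change below 0; per other list, up to 3 passing genes by lowest adjusted p. Log2 fold changes are also given for other passing members. Imp4, Utp3, Utp4, Utp6, Utp14a, Nop14, Rrp9, Nol11, Ddx10, Tsr1, Ltv1, Bysl, Bop1, Gnl3, Nol9, Rrs1, Ebna1bp2, Gnl2, Nolc1, Pno1's neighbour Wdr92, Ccnd3, Noxo1, Carf, Pbrm1, Utp14b, Sbds, Shq1, C1d and Myc were named after their values were seen, as were the complexes and the 5 ratios. The fit held treatment only and no block, and of the same-numbered libraries only those of replicate 2 clearly deviated together. The alternatives were other scaling, filters, dispersions and tools (DESeq2, and limma on log2(CPM + 1) or log2(CPM + 0.1)), an offset for GC content and length, a replicate block, and leaving out each library.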

Additional observations from a re-analysis of the deposited data

How the results depend on the processing

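The median log2 fold change of the 49 genes stayed above 0 and above that of all genes in all 17 alternatives (0.55 to 0.98). The number that rose was 11, and 18 with library totals, 19 with the GC content and length offset and 11 to 16 with the other scaling, filters, dispersions and tools. Of all genes tested, 14.4% rose as reported, 18.4% with library totals and 14.7% with that offset. With the other scaling, filters, dispersions and tools 7.35% to 15.6% rose, and with 1 library left out 5.23% to 16.3%. Leaving out 1 library gave 3 to 23 risen and 0 to 2 fallen members, the latter Nol10 and, without DMSO replicate 3, Npm1, and 1171 to 3820 calls over all genes, against 3028. Of the genes called, 56.3% were higher in MS-444 with TMM, 71.2% with library totals and 46.1% with the GC content and length offset.

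The replicate numbers did not pair the libraries as a set. Deviations from group means correlated at 0.06, 0.38 and -0.10 for numbers 1, 2 and 3. Of the DMSO libraries only replicate 2 correlated best with its own number. With a replicate block 22 members and 16.6% of all genes tested rose. With the block and the GC content and length offset, 21 members and 15.1% of all genes rose. The block ended the call of Shq1 (adjusted p = 0.0501), and the block with the offset those of Imp3 (0.68, adjusted p = 0.0537) and Exosc5 (0.66, adjusted p = 0.225). Signs turned for 7 members, none of which passed: Heatr1, at 0.40 as reported, and 6 at -0.06 to 0.16. With library totals Wdr43 was 0.14 and Rrp8 0.13, and with the block and offset Wdr43 was 0.002. Leaving out 1 library, Imp4 ranged from -0.163 to 0.228, Wdr43 from -0.23 to 0.01, Heatr1 from -0.062 to 0.552, Brix1 from -0.182 to 0.202, Ddx18 from -0.107 to 0.404 and Ftsj3 from -0.091 to 0.222. The cause of these changes was not tested. Depth limits the rarest members, since 3 counts in a library stand for 0.69 to 1.2 CPM.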
